A study of Homo sapiens with 6 samples.

Results

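NEAT1, a long noncoding RNA of the nucleus, was examined together with its neighbor MALAT1 and the paraspeckle proteins SFPQ, NONO, PSPC1, RBM14 and HNRNPK in MDA-MB-231 cells treated with S-adenosylmethionine (SAM). These 7 genes were taken by symbol, from the platform annotation or, for NEAT1, from the study's own list of changed probes. A total of 6 of the 7 had a named transcript cluster, the unit that the array reports for a gene or part of one, against 14884 genes named by the platform annotation in all. NONO counts as not measured here, since no transcript cluster carries its symbol. The platform annotation names 16098 transcript clusters, so a gene counted as not measured may still have an unnamed one. NEAT1, SFPQ, PSPC1, RBM14 and HNRNPK had 1 named transcript cluster each and MALAT1 had 3, which makes 8 of 53617. A further transcript cluster of NEAT1 would have no name here unless the study had listed it as changed. The study put RNA from 3 SAM-treated and 3 control samples, described as coming from 3 independent experiments, on Affymetrix Human Gene 2.0 ST arrays. MDA-MB-231 is an established line of highly invasive human breast cancer cells, without any transgene here. The treated cells were given SAM, the methyl donor of the cell, at 200 μM in regular growth medium every other day and were collected on day 7, whereas the labels call the control cells untreated and the study's text describes its in vitro controls as given vehicle. Values are log2 signals, on which a difference of 1 is a doubling, and signals of different transcript clusters are not on 1 scale.

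Paraspeckles are small bodies of the nucleus that are built on NEAT1. A short and a long form of this RNA start at the same promoter, and the long form is the scaffold on which the proteins assemble. SFPQ, NONO and PSPC1 form the DBHS family of RNA- and DNA-binding proteins, which pair with each other and coat NEAT1. RBM14 and HNRNPK are RNA-binding proteins that paraspeckles need to form, and HNRNPK favors the long form of NEAT1 by holding back the cleavage that ends the short one. Paraspeckles retain RNAs and proteins in the nucleus, and NEAT1 is induced by stress such as hypoxia. MALAT1 is a long noncoding RNA of nuclear speckles, the neighboring bodies that store splicing factors, and it is abundant in many tumors.

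The arrays were alike in their general level, with a median log2 signal of 4.83 to 4.85 in the SAM arrays and 4.75 to 4.83 in the control arrays. Control replicate 1 correlated least with the others across transcript clusters (mean r 0.964, against 0.974 to 0.98 for the other 5 arrays). Over all transcript clusters, 582 (1.09%) passed the thresholds named by the study's methods, a fold change of more than 1.5 in either direction at P below 0.01 without adjustment, with 249 higher (0.464%) and 333 lower (0.621%) in SAM-treated cells. None (0) had an adjusted p under 0.05 in limma, although 4285 had an unadjusted P under 0.05. Of 11 markers of this line and of breast cells 9 were measured, and 8 of them, all but PGR, had a mean signal above the median of all transcript clusters. These 8 hold the mesenchymal markers VIM and CD44, but also the epithelial and luminal markers KRT8, KRT18, KRT19, EPCAM and GATA3 and the estrogen receptor gene ESR1, which the line is known to lack, so these levels do not tell the line from other breast cells. None (0) of the 9 passed both thresholds, and 3 of the 9 had an unadjusted P under 0.05 in limma, against 7.99% of all transcript clusters. These were KRT19, a keratin of luminal cells (log2 fold change -0.45, SE 0.14), CD44, a hyaluronan receptor (0.41, SE 0.14), and ESR1. In 4 of the 9 the groups did not overlap, against 15.1% of all transcript clusters. None (0) of the measured 3 of 8 leukocyte, 3 of 5 endothelial or 2 of 7 stromal markers passed both thresholds, and 1 of them, the leukocyte marker CD68, had an unadjusted P under 0.05 in limma (log2 fold change 0.39, SE 0.13). On the linear scale the summed signal of the 3 leukocyte markers was 1687 to 2008 in the SAM arrays and 1311 to 1424 in the control arrays, most of it from CD68, whose lysosomal protein cells other than leukocytes also make; that of the endothelial markers was 112.6 to 131.6 in the SAM arrays and 133.8 to 148.3 in the control arrays. Whether these markers had a part in the values below was not tested.

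NEAT1 was lower in every SAM array than in any control array. Its log2 signal was 7.58, 7.28 and 7.00 in SAM replicates 1, 2 and 3, against 8.38, 8.24 and 8.37 in control replicates 1, 2 and 3. The groups did not overlap and were 0.66 apart on the log2 scale between the highest SAM and the lowest control array, and the SAM arrays spread over 0.58, the control arrays over 0.15. The mean was 7.28 ± 0.29 in SAM-treated cells and 8.33 ± 0.08 in control cells (SD, n = 3 arrays each), a log2 fold change of -1.05 (SE 0.17), or 2.06-fold lower. NEAT1 has a name here only because the study listed this transcript cluster as changed, so these values are a description and no test is drawn from them. Any NEAT1 transcript cluster not listed as changed would be unnamed, so the values need not stand for the whole gene. For scale, 135 transcript clusters had a log2 fold change as low or lower, 57 of them past both thresholds. With 1 array left out in turn the log2 fold change ran from -1.19 without SAM replicate 1 to -0.90 without SAM replicate 3. The array gives 1 signal for this transcript cluster, so the short and the long form of NEAT1 cannot be told apart. Likewise, in bulk RNA a lower signal in every cell and a loss in some of the cells cannot be told apart.

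**Figure D1:**
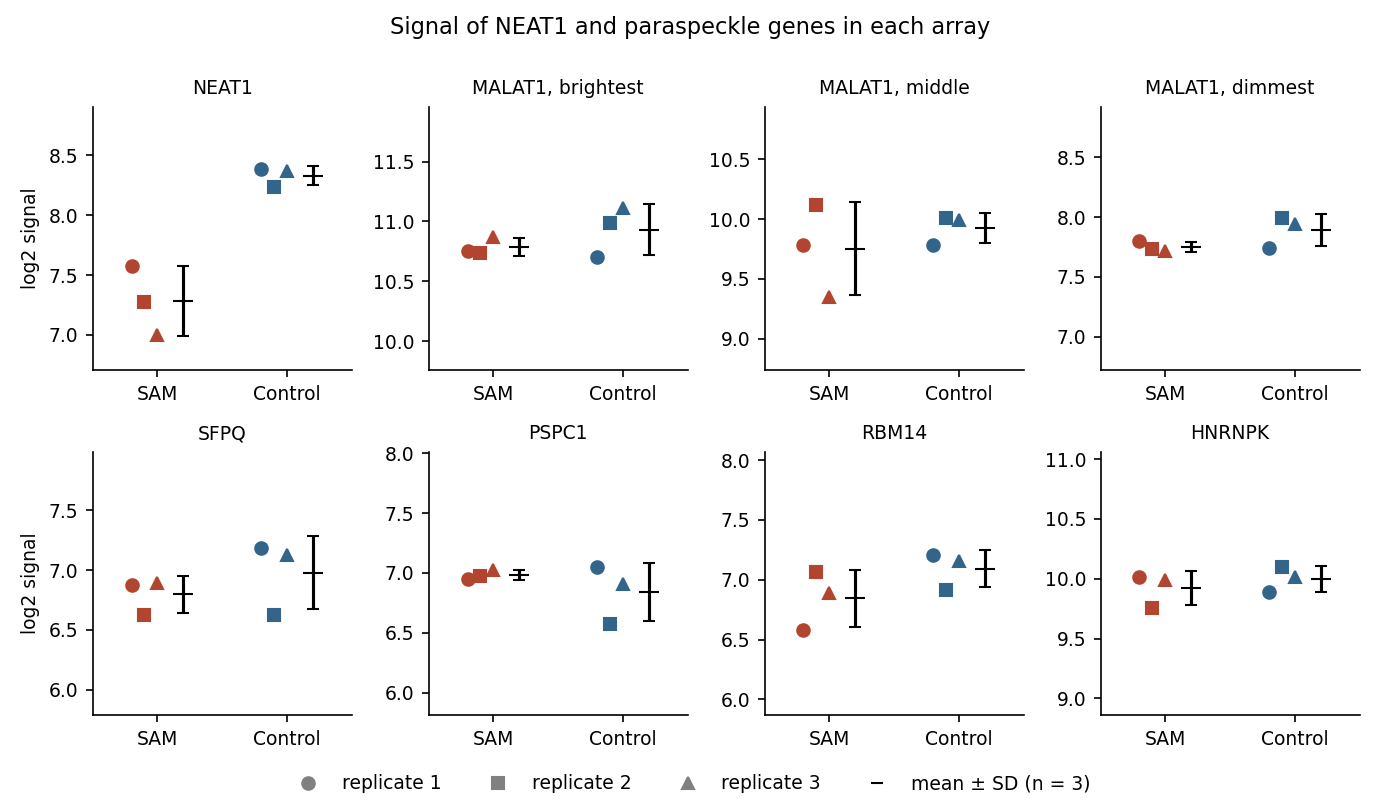
Log2 signal (vertical axis, 2.2 log2 units in every panel) of the 8 transcript clusters in the 3 SAM and 3 Control arrays, 1 point per array with the mean and SD beside it. NEAT1 had SAM arrays at 7.00 to 7.58, all below its control arrays at 8.24 to 8.38, and the other 7 panels show groups that overlap.

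MALAT1, the next gene along chromosome 11 after NEAT1 when only protein-coding genes and this pair are counted, did not pass the thresholds in any of its transcript clusters. The brightest gave log2 signals of 10.75, 10.74 and 10.87 in the SAM arrays, against 10.70, 10.98 and 11.11 in the control arrays. The lowest of these 6 values was that of control replicate 1, so the groups overlapped. The log2 fold change was -0.15 (SE 0.15, 95% interval -0.49 to 0.20, adjusted p = 0.794 in limma). In the middle transcript cluster the SAM arrays spread from 9.35 in replicate 3 to 10.12 in replicate 2, with 9.79 in replicate 1, and the control arrays lay at 9.78, 10.01 and 9.99. The dimmest gave 7.80, 7.73 and 7.72 in the SAM arrays and 7.74, 7.99 and 7.95 in the control arrays. These transcript clusters had log2 fold changes of -0.17 (SE 0.20) and -0.14 (SE 0.13), close to that of the brightest one. Although all 3 carry the same reference accession, their signals correlated at r = 0.15 to 0.81 over the 6 arrays, which share their normalization. The log2 fold change of NEAT1 lay 0.90 below that of the brightest MALAT1 transcript cluster, a difference that was not tested because NEAT1 was chosen for its change.

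SAM donates the methyl group that DNA methyltransferases place on the cytosine of CG pairs, and so the CG pairs at the start sites of some of the measured genes are shown. The sequences come from RefSeq, from 250 bases before to 50 bases after a start on GRCh38.p14, and 5 of the 7 genes have an entry (MALAT1, HNRNPK, RBM14, PSPC1 and NONO), whereas NEAT1 and SFPQ have none. MALAT1 has a pair of annotated starts that differ in their CG content, and RBM14 and PSPC1 are shown as the protein genes with the lowest and the highest log2 fold change. Capitals mark each CG pair, 5′ to 3′.
MALAT1, upstream start (GRCh38.p14 chr11:65497488-65497787, + strand): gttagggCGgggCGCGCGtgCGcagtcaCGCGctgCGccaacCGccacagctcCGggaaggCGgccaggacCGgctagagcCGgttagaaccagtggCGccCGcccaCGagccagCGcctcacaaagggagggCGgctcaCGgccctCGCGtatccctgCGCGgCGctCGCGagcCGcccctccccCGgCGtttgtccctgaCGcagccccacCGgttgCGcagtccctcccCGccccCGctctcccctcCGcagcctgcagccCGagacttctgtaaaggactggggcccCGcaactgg
MALAT1, downstream start (GRCh38.p14 chr11:65498795-65499094, + strand): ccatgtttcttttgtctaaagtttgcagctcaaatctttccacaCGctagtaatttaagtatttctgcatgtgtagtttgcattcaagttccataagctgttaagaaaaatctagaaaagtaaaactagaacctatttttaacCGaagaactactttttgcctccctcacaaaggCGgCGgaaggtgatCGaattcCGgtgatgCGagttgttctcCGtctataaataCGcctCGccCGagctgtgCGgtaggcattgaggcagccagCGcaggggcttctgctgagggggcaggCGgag
RBM14 (GRCh38.p14 chr11:66616380-66616679, + strand): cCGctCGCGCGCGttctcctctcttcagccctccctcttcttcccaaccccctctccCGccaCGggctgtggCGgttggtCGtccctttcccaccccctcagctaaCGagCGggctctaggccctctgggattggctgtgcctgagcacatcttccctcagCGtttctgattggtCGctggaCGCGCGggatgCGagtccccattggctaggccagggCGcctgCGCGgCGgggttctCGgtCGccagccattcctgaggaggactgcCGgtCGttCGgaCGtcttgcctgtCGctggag
PSPC1 (GRCh38.p14 chr13:19782896-19783195, - strand): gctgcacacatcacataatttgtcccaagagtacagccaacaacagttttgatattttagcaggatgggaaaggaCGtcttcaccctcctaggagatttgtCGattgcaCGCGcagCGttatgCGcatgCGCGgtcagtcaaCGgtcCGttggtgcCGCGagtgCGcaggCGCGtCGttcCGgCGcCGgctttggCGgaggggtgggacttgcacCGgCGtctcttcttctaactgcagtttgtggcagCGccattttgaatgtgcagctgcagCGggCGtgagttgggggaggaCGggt
The upstream start of MALAT1 held 37 CG pairs, a number that 11.3% of the 35116 windows of 300 bases in the table reach, and the downstream start held 14, which 50.3% reach. RBM14 held 28 and PSPC1 26, as many as 26.2% and 30.1% of windows hold. The letters TATAAA, searched on both strands, occurred in the downstream MALAT1 window and in none of the other windows of these genes, against 11.5% of all windows. The letters CCAAT, also on both strands, occurred in the windows of RBM14 and NONO and in the downstream HNRNPK window, against 34.6% of all windows. The upstream HNRNPK window and those of MALAT1 and PSPC1 did not hold them. The arrays measured RNA and not methylation, so these counts are descriptions of the reference sequence.

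Of the DBHS genes, SFPQ and PSPC1 were measured. SFPQ, which also acts in splicing and as a transcriptional repressor, gave log2 signals of 6.88, 6.62 and 6.89 in the SAM arrays and 7.19, 6.63 and 7.12 in the control arrays. Replicate 2 was the lowest array of both groups, and the groups overlapped. The log2 fold change was -0.18 (SE 0.18, 95% interval -0.61 to 0.24, adjusted p = 0.793 in limma), and it was -0.36 without control replicate 2 and -0.08 without control replicate 1. PSPC1, a partner of NONO and SFPQ named after paraspeckles, had 6.95, 6.97 and 7.02 in the SAM arrays, against 7.05, 6.58 and 6.91 in the control arrays. Its SAM arrays lay within 0.08 of each other and inside the range of the control arrays. PSPC1 was the member with a positive log2 fold change, 0.14 (SE 0.15, 95% interval -0.22 to 0.49, adjusted p = 0.817 in limma), which was 0.0043 without control replicate 2, the array at 6.58, and 0.24 without control replicate 1. After the group means were taken off, SFPQ and PSPC1 correlated at r = 0.89 over the 6 arrays (r = 0.54 and Spearman's rho = 0.43 with the group means left in), given as a description of arrays that share their normalization.

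RBM14, an RNA-binding coactivator with a prion-like domain, gave 6.58, 7.06 and 6.89 in the SAM arrays and 7.20, 6.92 and 7.16 in the control arrays. SAM replicates 1 and 3 lay below every control array, SAM replicate 2 above control replicate 2. The log2 fold change was -0.25 (SE 0.16, 95% interval -0.63 to 0.13, adjusted p = 0.706 in limma), and it was -0.12 without SAM replicate 1 and -0.36 without SAM replicate 2. HNRNPK, which binds cytosine-rich RNA, had 10.02, 9.76 and 9.99 in the SAM arrays and 9.88, 10.10 and 10.01 in the control arrays. The groups overlapped, with a log2 fold change of -0.08 (SE 0.14, 95% interval -0.40 to 0.24, adjusted p = 0.885 in limma). Without SAM replicate 2 this value was 0.0022, and without control replicate 1 it was -0.14. The deviations of RBM14 and HNRNPK from their group means correlated at r = -0.85 over 6 arrays (r = -0.42 and Spearman's rho = -0.49 with the group means left in), although both genes lay above their group mean in replicate 3 of each group. This pair and that of SFPQ and PSPC1 are the extremes of 15 pairs of measured genes.

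Counted together, 1 of the 6 measured genes, NEAT1, passed both thresholds, beside 0.621% of all transcript clusters lower and past both, and nothing is read from this count since NEAT1 was chosen by this contrast. The 5 other measured genes all overlapped between the groups, whereas 15.1% of all transcript clusters did not. In all, 4 of these 5 had a negative log2 fold change, with a median of -0.15 for the 5 and of -0.02 over the 14884 annotated genes. The intervals above reach at most -0.63 and 0.49 among the main transcript clusters of these 5 genes, so a change of about 1.5-fold (0.58 on the log2 scale) lies outside the intervals of PSPC1, HNRNPK and the brightest MALAT1 transcript cluster in both directions and inside those of SFPQ and RBM14 on the lower side. The interval of the middle MALAT1 transcript cluster, -0.65 to 0.31, also includes a 1.5-fold lower level. The adjusted p above the threshold does not show that they were unchanged.

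**Figure D2:**
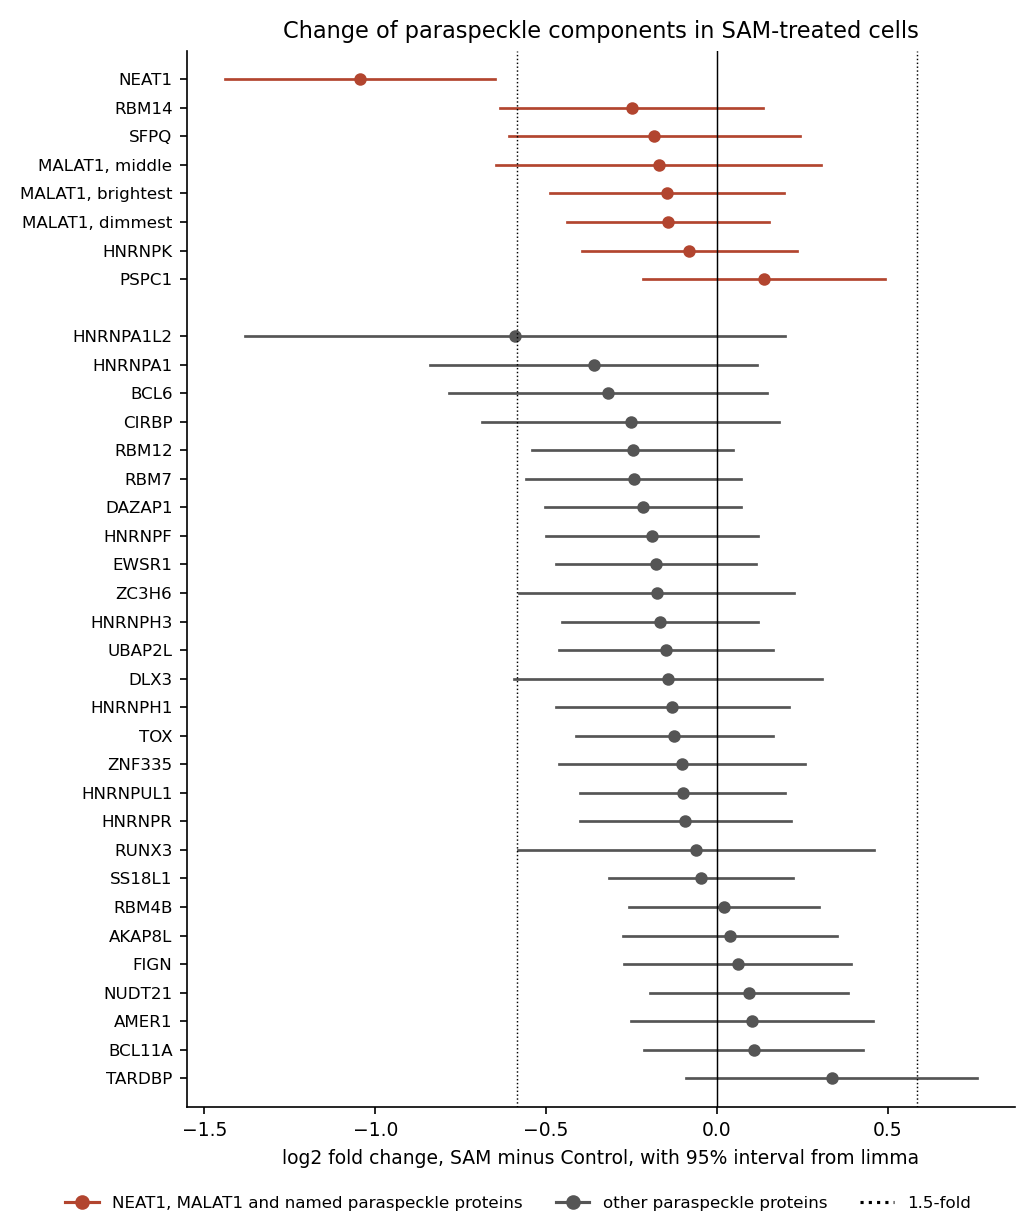
Log2 fold change of SAM minus Control (horizontal axis) with its 95% interval from limma for the 8 transcript clusters and, below them, for 27 other paraspeckle proteins, with dotted lines at 1.5-fold. NEAT1 stands at -1.05, and among the 27 the values run from -0.59 (HNRNPA1L2) to 0.34 (TARDBP), all with intervals that include 0.

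A wider list of 38 proteins found in paraspeckles had 27 measured genes, and none (0) passed both thresholds, against 1.09% of all transcript clusters. With limma's unadjusted P below 0.05 there were 0 as well, against 7.99% of all transcript clusters. The log2 fold change was negative in 20 and positive in 7, with a median of -0.13, and it was negative in 74.1% of these genes against 54.2% of all annotated genes, a difference that was not tested. RBM12 had log2 signals of 8.84, 8.80 and 8.60 in the SAM arrays, against 9.01, 9.03 and 8.93 in the control arrays. The RNA-binding protein gene RBM7, a part of the nuclear exosome targeting complex, had a log2 fold change of -0.24 (SE 0.13). DAZAP1, another protein that paraspeckles need, had 8.55, 8.65 and 8.70 in the SAM arrays and 8.82, 8.76 and 8.95 in the control arrays. In each of RBM12, RBM7 and DAZAP1 the SAM arrays lay below all control arrays, by 0.0086 to 0.089. In total 5 of the 27 genes had all SAM arrays below and 0 all above. Of the 14884 annotated genes, 1738 had all SAM arrays below and 1018 all above, and of all transcript clusters 7.95% and 7.12%. The lowest adjusted p was 0.660 in limma, that of RBM12.

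The splicing regulator gene HNRNPA1 had a log2 fold change of -0.36 (SE 0.21), and its near-identical copy HNRNPA1L2 one of -0.59 (SE 0.34). Signals of these copies are uncertain, since probes may bind RNA of both, and HNRNPA1L2 had a mean of 4.32 ± 0.45 in the SAM arrays and 4.91 ± 0.61 in the control arrays (SD, n = 3), near the median signal of an array. TARDBP, the gene of TDP-43, which promotes the short form of NEAT1, ran the other way. Its log2 signal was 7.49, 7.23 and 7.43 in the SAM arrays and 6.95, 6.79 and 7.40 in the control arrays. Control replicate 3 reached into the SAM range, and the log2 fold change was 0.34 (SE 0.18, adjusted p = 0.671 in limma). Of 15 genes for RNA polymerase II subunits and for the cleavage and polyadenylation that end the short form, 3 were measured, all for cleavage and polyadenylation. None (0) of the 3 passed both thresholds, against 1.09% of all transcript clusters. None (0) had an unadjusted P under 0.05 in limma, against 7.99%. WDR33 had a log2 fold change of -0.31 (SE 0.17), SYMPK of -0.18 (SE 0.14) and FIP1L1 of 0.06 (SE 0.13).

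The proteins of nuclear speckles, the body of MALAT1, were set beside those of paraspeckles. Of 24 genes, 21 were measured, and 0 passed both thresholds, against 1.09% of all transcript clusters. Likewise, limma's P before adjustment fell below 0.05 for 0 of the 21, beside 7.99% of all transcript clusters. The log2 fold change was negative in 20 of the 21 (95.2%), against 54.2% of all annotated genes, a difference that was not tested. The median of the 21 was -0.13, and it was -0.07 after cyclic loess. CLK1, a kinase that phosphorylates splicing factors, had 5.92, 5.73 and 5.62 in the SAM arrays and 6.16, 6.42 and 5.86 in the control arrays (log2 fold change -0.39, SE 0.17). The kinase gene CLK3 had -0.26 (SE 0.13), and the splicing factor gene SRSF3 had -0.33 (SE 0.15). The lowest array of each group was counted over the lists. Control replicate 2 was the lowest control array for 16 of the 21 nuclear speckle genes (76.2%), 12 of 27 other paraspeckle genes (44.4%) and 3 of the 4 measured protein genes among NEAT1's partners, as against 34.1% of all annotated genes. SAM replicate 2 was the lowest SAM array for 13 of 21 (61.9%), 13 of 27 (48.1%) and 2 of 4, against 39.9% of all annotated genes, and SAM replicate 1 was the lowest for the other 2 of the 4. The median log2 fold change of the nuclear speckle list was -0.25 without control replicate 2 and -0.09 without control replicate 3, and that of the other paraspeckle proteins was -0.16 and -0.09 without the same arrays.

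**Figure D3:**
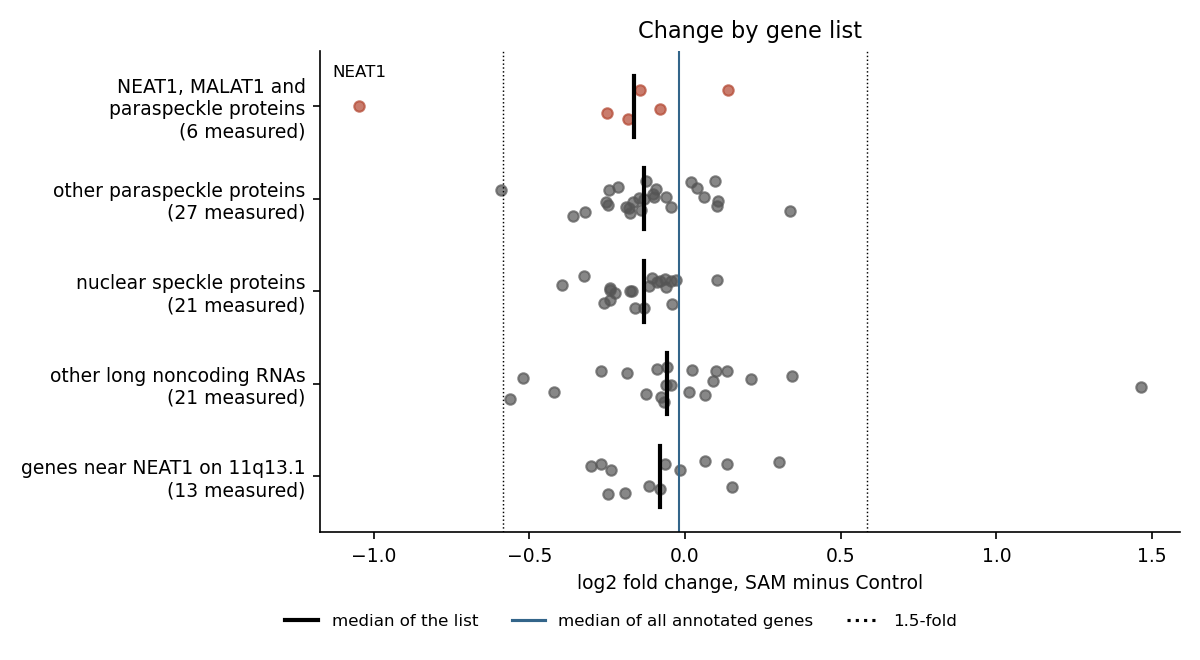
Log2 fold change of SAM minus Control (horizontal axis) of each measured gene in 5 lists, with the list's median as a black bar and the median of all annotated genes (-0.02) as a blue line; the height of a point within a list has no meaning. NEAT1 lies at -1.05, and the medians of the other 4 lists are -0.13, -0.13, -0.06 and -0.08 from top to bottom.

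Of 36 symbols for other long noncoding RNAs and noncoding RNA genes, some of them older names of the same gene, 21 were measured. None (0) of the 21 passed both thresholds, against 1.09% of all transcript clusters. The 21 had 12 negative and 9 positive log2 fold changes. Their median was -0.06, and it was -0.03 after cyclic loess and -0.10 with arrays centred on their median. A total of 4 of the 21 had an unadjusted P under 0.05 in limma, 2 higher and 2 lower, against 7.99% of all transcript clusters. SNHG5, a host gene of small nucleolar RNAs, had 6.48, 6.34 and 6.57 in the SAM arrays and 6.99, 7.03 and 7.05 in the control arrays. These groups were 0.43 apart, and SNHG5 missed the fold change threshold at 1.47-fold lower (log2 fold change -0.56, SE 0.12, adjusted p = 0.531 in limma). CRNDE, a noncoding RNA raised in several tumors, had 4.90, 4.96 and 4.80 in the SAM arrays and 5.32, 5.65 and 5.26 in the control arrays, and missed it at -0.52 (SE 0.15, adjusted p = 0.574 in limma). UCA1, first described in bladder cancer, had 5.90, 7.89 and 7.58 in the SAM arrays and 4.84, 6.05 and 6.09 in the control arrays. SAM replicate 1 fell inside the control range, and the log2 fold change was 1.46 (SE 0.55, adjusted p = 0.604 in limma) in this transcript cluster and 0.19 (SE 0.17) in the dimmer one.

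The genes around NEAT1 and MALAT1 on 11q13.1 gave no count past the thresholds either. Of 24 symbols, 13 had a named transcript cluster. Of these, 0 passed both thresholds, against 1.09% of all transcript clusters, and 1 had an unadjusted P under 0.05 in limma, against 7.99%. The 13 split into 9 negative and 4 positive log2 fold changes with a median of -0.08. PCNX3, a multipass membrane protein gene, had 7.41, 7.35 and 7.31 in the SAM arrays and 7.60, 7.57 and 7.81 in the control arrays (log2 fold change -0.30, SE 0.13). ZNRD2 had 7.97, 8.10 and 7.91 in the SAM arrays and 7.68, 7.82 and 7.57 in the control arrays, which is the opposite direction (log2 fold change 0.30, SE 0.13). LTBP3, a binding protein of latent TGF-β, had -0.27 (SE 0.15), and on the other side of NEAT1 the nearest measured protein-coding gene, FRMD8, had 0.06 (SE 0.13). The adjusted p of PCNX3 was 0.622 in limma, the lowest among these 13.

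Genes known to act on NEAT1 or to be acted on by it were likewise without a call. Of 10 regulators of NEAT1 transcription, 7 were measured and 0 passed both thresholds, against 1.09% of all transcript clusters. These 7 had 6 negative and 1 positive log2 fold changes (median -0.16, and -0.10 after cyclic loess). HIF1A, the gene of a hypoxia-inducible factor, was not among those measured. ESR1, the estrogen receptor gene, had 5.37, 5.25 and 5.12 in the SAM arrays and 4.80, 5.01 and 4.98 in the control arrays (log2 fold change 0.32, SE 0.13, unadjusted P under 0.05 and adjusted p = 0.622 in limma). The stress-activated factor gene ATF2 and ARNT, the partner of the hypoxia-inducible factors, had log2 fold changes of -0.24 (SE 0.14) and -0.21 (SE 0.15). Of 6 symbols for targets, 3 were measured. CXCL8, the gene of interleukin 8, which SFPQ represses, had 8.39, 9.23 and 9.23 in the SAM arrays and 8.57, 10.10 and 8.65 in the control arrays. Control replicate 2 stood above all others, and the log2 fold change was -0.15 (SE 0.43). CCL5 and LIN28A had log2 fold changes of -0.07 (SE 0.15) and -0.01 (SE 0.15).

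The genes whose pattern over the 6 arrays was most like that of NEAT1 were PRPF39, GPD1L, RMND5B, PURA and LRCH1, taken among the transcript clusters with a platform symbol and a mean above the median. PRPF39, a factor of the U1 small nuclear ribonucleoprotein, had r = 0.99 with NEAT1 and gave 6.34, 6.26 and 6.16 in the SAM arrays and 6.48, 6.46 and 6.48 in the control arrays. After the group means were taken off the correlation was also r = 0.99, and its log2 fold change was -0.22 (SE 0.12). GPD1L, a glycerol-3-phosphate dehydrogenase gene, had r = 0.99 and a log2 fold change of -0.40 (SE 0.12). The other three had r = 0.97 to 0.98 and log2 fold changes of -0.28 (RMND5B), -0.10 (PURA) and -0.38 (LRCH1). Spearman's rho was 0.94 for each of the 5, and none of the 5 passed both thresholds. These are the highest among many correlations over 6 arrays that share their normalization, and most of the variation of NEAT1 lies between its groups.

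**Figure D4:**
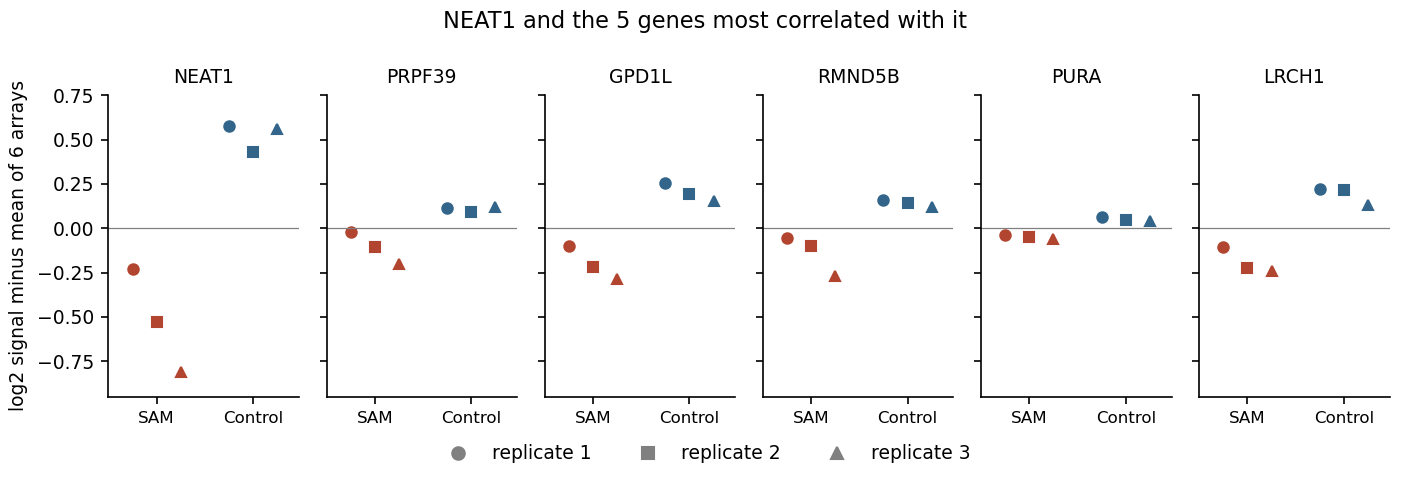
Log2 signal minus the mean of the 6 arrays (vertical axis, 1 scale for all panels) in the SAM and Control arrays for NEAT1 and the 5 genes with the highest Pearson correlation with it. All 6 genes have their SAM arrays below their control arrays, and the 5 genes change by 0.10 to 0.40 against 1.05 for NEAT1 on the log2 scale.

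Leaving out 1 array at a time showed which of these values rest on single arrays. MALAT1 had -0.26 without control replicate 1 and -0.06 without control replicate 3. None of the 5 measured genes other than NEAT1 passed the thresholds in any of the cases. With 3 arrays against 3, an exact permutation test of any single gene cannot give a two-sided p under 0.1, and the number of arrays limits the precision of every value here.

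**Figure D5:**
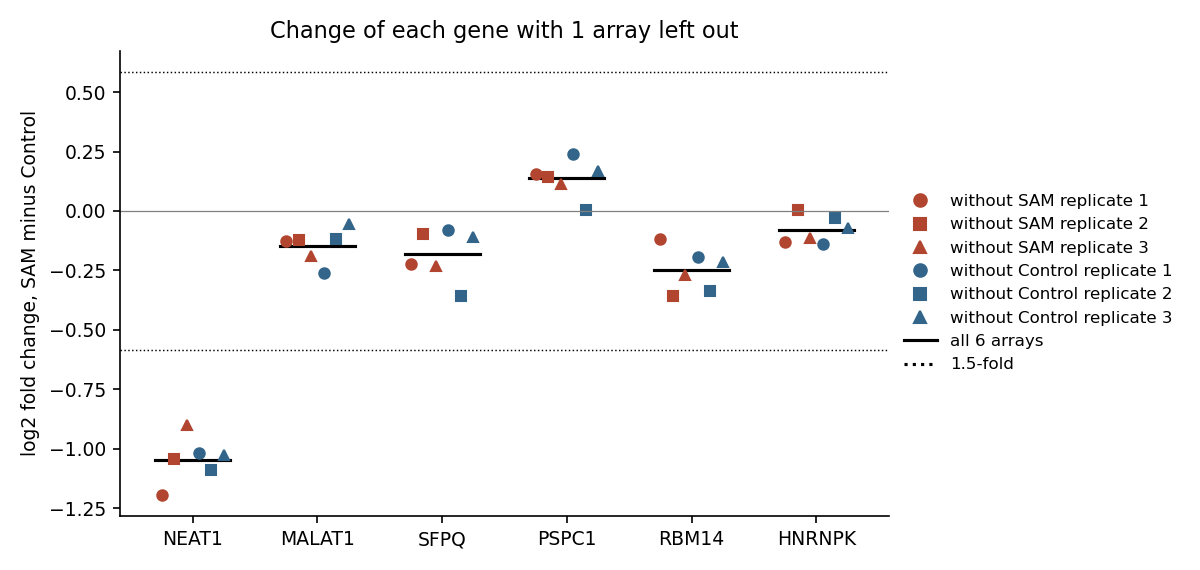
Log2 fold change of SAM minus Control (vertical axis) of the 6 measured genes with each array left out in turn (points, red where a SAM array and blue where a Control array was left out) and with all 6 arrays (black bars), with dotted lines at 1.5-fold. NEAT1 runs from -1.19 to -0.90, and the other 5 stay between the dotted lines, with PSPC1 at 0.0043 without control replicate 2.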

How the data were processed

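Total RNA of 3 SAM-treated and 3 control MDA-MB-231 samples was hybridized to Affymetrix Human Gene 2.0 ST arrays. The authors deposited log2 signal values made by RMA in the Bioconductor package oligo (background correction, quantile normalization across arrays and a summary per transcript cluster), whose version is not given in the sources used here, and no filter is stated. Quantile normalization removes any shift common to all genes. SAM was compared with Control with limma 3.58.1 (R 4.3.3; lmFit, then eBayes) on all 53617 transcript clusters, without a block, with Benjamini-Hochberg adjustment over all of them and the thresholds of the methods. SE and 95% intervals are limma's. The labels do not say how replicate numbers relate across groups.

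The platform annotation names 16098 transcript clusters; the study's supplementary list of changed probes was used only for symbols that the annotation lacks (here NEAT1), and its fold changes and P values were neither printed nor compared. For a gene with several transcript clusters the one with the highest mean was the main one. The 12 gene lists, which include that of the 7 genes, were chosen with earlier results of these data known. Named were all 7 genes, any list gene past both thresholds, up to 6 other paraspeckle proteins and up to 3 genes of each other list by smallest P, and the 5 genes most correlated with NEAT1; VIM, PGR, KRT8, KRT18, EPCAM, GATA3, FRMD8 and genes named as not measured were added after their values were seen. The fit was tested on simulated data. The alternatives were a filter on dim transcript clusters, named ones only, 3 other normalizations, another variance model, a two-tailed Student test on the same values, a replicate block, other fold change minimums, the mean of a gene's transcript clusters and each array left out.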

Additional observations from a re-analysis of the deposited data

How the results depend on the processing

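The log2 fold change of NEAT1, a description since this contrast chose it, ran from -1.19 to -0.90 over the alternatives that could measure it, and was -0.98 after cyclic loess and -1.08 with arrays centred on their median. With only transcript clusters that have a platform symbol NEAT1 is not among those tested, and the members past both thresholds were 0. Of 89 recomputed fold changes of the 6 measured genes, 14 of them of NEAT1, 88 kept their direction and side of the thresholds; the exception was HNRNPK, at -0.08 with all arrays, which leaving out 1 array moved to between -0.14 (control replicate 1 omitted) and 0.0022 (SAM replicate 2 omitted). The other paraspeckle proteins past both thresholds were 0 throughout. The count of all transcript clusters past both thresholds was 582. Separate refits gave 359 without the dim ones and 165 with a platform symbol only. A two-tailed Student test, which the study's methods name for other measurements, gave 188 (0 after Benjamini-Hochberg, 4017 at an unadjusted P under 0.05). Other cutoffs on the main fit gave 921 without a fold change minimum and 143 with a minimum of 2. With 1 array left out the count past both thresholds ran from 463 without SAM replicate 1 to 934 without control replicate 2.

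With the replicate number as a block the count was 659, with 0 at an adjusted p under 0.05 in limma, and no call of the 6 measured genes changed. Deviations from the group means correlated at r = -0.0027, -0.075 and 0.109 between same-numbered SAM and control arrays. Between differently numbered ones they correlated at r = -0.139 to 0.112. These values cannot settle whether the numbers are pairs, since the deviations within a group sum to 0. The main fit used no block because the labels do not state a pairing. With 3 arrays in each group, a 1.5-fold lower level of SFPQ or RBM14 could not be told from no change.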
